A study of Drosophila melanogaster with 2 samples.

Results

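Transcriptional corepressors are nuclear proteins that lower transcription when DNA-binding repressors bring them to a gene. Many of them act by recruiting histone deacetylases, enzymes that remove acetyl groups from histone tails. In the fly embryo they serve segmentation, Notch signalling and nuclear receptor signalling, among other processes. The genes described here are Gug, which encodes the fly Atrophin, tara, which encodes Taranis of the TRIP-Br family of transcriptional coregulators, gro, which encodes the WD-repeat corepressor Groucho, and CtBP, which encodes the C-terminal binding protein that acts with short-range repressors. The others are Sin3A, the scaffold of the Sin3 deacetylase complex, Smr, which encodes the SMRTER corepressor of nuclear receptors and of Su(H), and HDAC1, the histone deacetylase also known as Rpd3.

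The 7 genes were taken by name from the Ensembl annotation, out of 13945 protein-coding genes. They were chosen by earlier results of the same data, since strong peaks far from any transcription start site (TSS) had been seen in introns of Gug and tara. Their peak counts, ranks and signals are therefore given as a description, without tests. The data are chromatin immunoprecipitation followed by sequencing (ChIP-seq) with an anti-GFP antibody in which chromatin of whole embryos of Drosophila melanogaster, 10 to 24 h old, was used. The embryos came from 1 transgenic line that carries the protein of CG43347, under its older name CG9817, with GFP at its C-terminus. The 2 samples, biological replicates 1 and 3, form 1 group, and no embryos without the tag were analysed here. The assay records where the tagged protein was recovered on chromatin in the whole embryo, and not in which cells, nor whether the gene was transcribed.

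Each replicate and the 2 replicates together had a list of 30000 peaks. The 5038 peaks that passed a threshold on the irreproducible discovery rate (IDR), called IDR peaks here, were the 5038 strongest of the pooled list. Strength means the signal value that the authors deposited for each peak, whose scale is not defined in the sources used here, so it is read within a list and together with its rank (1 is the strongest). In the IDR list it ran from 129 to 11419 with a median of 251. Read totals were not used, so sequencing depth is unknown for both replicates. A peak was assigned to a gene by its summit. A promoter peak lay within 500 bp of a TSS of the gene, an intronic peak lay inside the gene outside promoters and exons, and a flank peak lay outside the gene by at most 5 kb.

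The sequences at 6 of these peaks are shown first, because they are the strongest at Gug, tara and Smr, or mark the start sites of gro. Each is the IDR summit with 100 bp on each side, plus strand of the release 6 (dm6) assembly, 5′ to 3′. Capitals mark CACTG and TAATATA on either strand, words that were more frequent at all IDR summits than 600 bp away and were chosen after the data were seen.
Gug intron, rank 130, chr3L:8458235-8458435: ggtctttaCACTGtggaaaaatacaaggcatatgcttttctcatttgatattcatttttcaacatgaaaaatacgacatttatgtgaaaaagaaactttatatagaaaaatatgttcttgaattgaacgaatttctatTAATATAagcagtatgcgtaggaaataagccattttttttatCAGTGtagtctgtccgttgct
tara upstream flank, rank 59, chr3R:16222405-16222605: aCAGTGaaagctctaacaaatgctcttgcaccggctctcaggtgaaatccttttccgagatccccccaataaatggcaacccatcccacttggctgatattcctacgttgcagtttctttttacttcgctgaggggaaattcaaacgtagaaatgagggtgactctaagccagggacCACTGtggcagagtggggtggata
tara intron, rank 119, chr3R:16236869-16237069: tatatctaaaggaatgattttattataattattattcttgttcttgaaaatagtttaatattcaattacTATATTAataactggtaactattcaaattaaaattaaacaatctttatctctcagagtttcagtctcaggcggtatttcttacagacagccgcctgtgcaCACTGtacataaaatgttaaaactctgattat
gro start region, rank 331, chr3R:26042398-26042598: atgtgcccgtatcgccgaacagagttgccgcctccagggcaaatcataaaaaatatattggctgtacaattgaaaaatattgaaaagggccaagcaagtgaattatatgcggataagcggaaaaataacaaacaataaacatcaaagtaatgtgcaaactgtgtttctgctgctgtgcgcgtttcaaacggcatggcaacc
gro first start site, rank 1246, chr3R:26041569-26041769: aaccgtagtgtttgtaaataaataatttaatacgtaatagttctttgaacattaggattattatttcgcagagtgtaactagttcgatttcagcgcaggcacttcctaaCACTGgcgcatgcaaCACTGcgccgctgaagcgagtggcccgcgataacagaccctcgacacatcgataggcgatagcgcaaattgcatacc
Smr intron, rank 299, chrX:12734900-12735100: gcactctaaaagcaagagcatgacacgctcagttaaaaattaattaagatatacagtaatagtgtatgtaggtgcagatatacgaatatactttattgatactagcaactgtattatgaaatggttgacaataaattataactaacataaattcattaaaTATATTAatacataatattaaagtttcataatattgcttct
The Gug window held CACTG at both ends, beginning 92 bp to the left and 80 bp to the right of the summit, and TAATATA between them. The tara intronic window held each word 1 time, and the tara flank window held CACTG 2 times. The window of the first gro start site held CACTG 9 and 24 bp to the right of its summit, and the Smr window held TAATATA alone. The other gro window held neither word. CACTG was present in 45.9% of all IDR windows and 31.3% of windows 600 bp away, and TAATATA in 15.0% and 5.43%.

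All 7 genes had at least 1 IDR peak in the gene or its flanks, 30 peaks in all. Over all protein-coding genes the share with such a peak was 53.5%. The 30 peaks divided into 4 promoter peaks at 2 genes, 19 intronic peaks at 5 genes and 7 flank peaks at 4 genes, and 0 lay in exons. Promoter peaks were thus present at 2 of 7 genes, gro and Sin3A, against a background of 23.7% of protein-coding genes, so the members' count at start sites was close to that of genes at large. Intronic peaks were present at 5 of 7 genes, against 7.75% of protein-coding genes. Long genes offer more intron, and the share was 50% among the 1013 coding genes of at least 20 kb (506 genes). Gug, tara and Smr are of that length, and each of the 3 had intronic peaks. Gug and tara were chosen with intronic peaks already seen in them, so these intronic counts were partly fixed in advance. Any peak in the gene or its flanks was present at 71.5% of the long genes. The shares of protein-coding genes with a flank peak or an exon peak were not computed. The counts of flank and exon peaks therefore describe these genes alone.

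**Figure D1:**
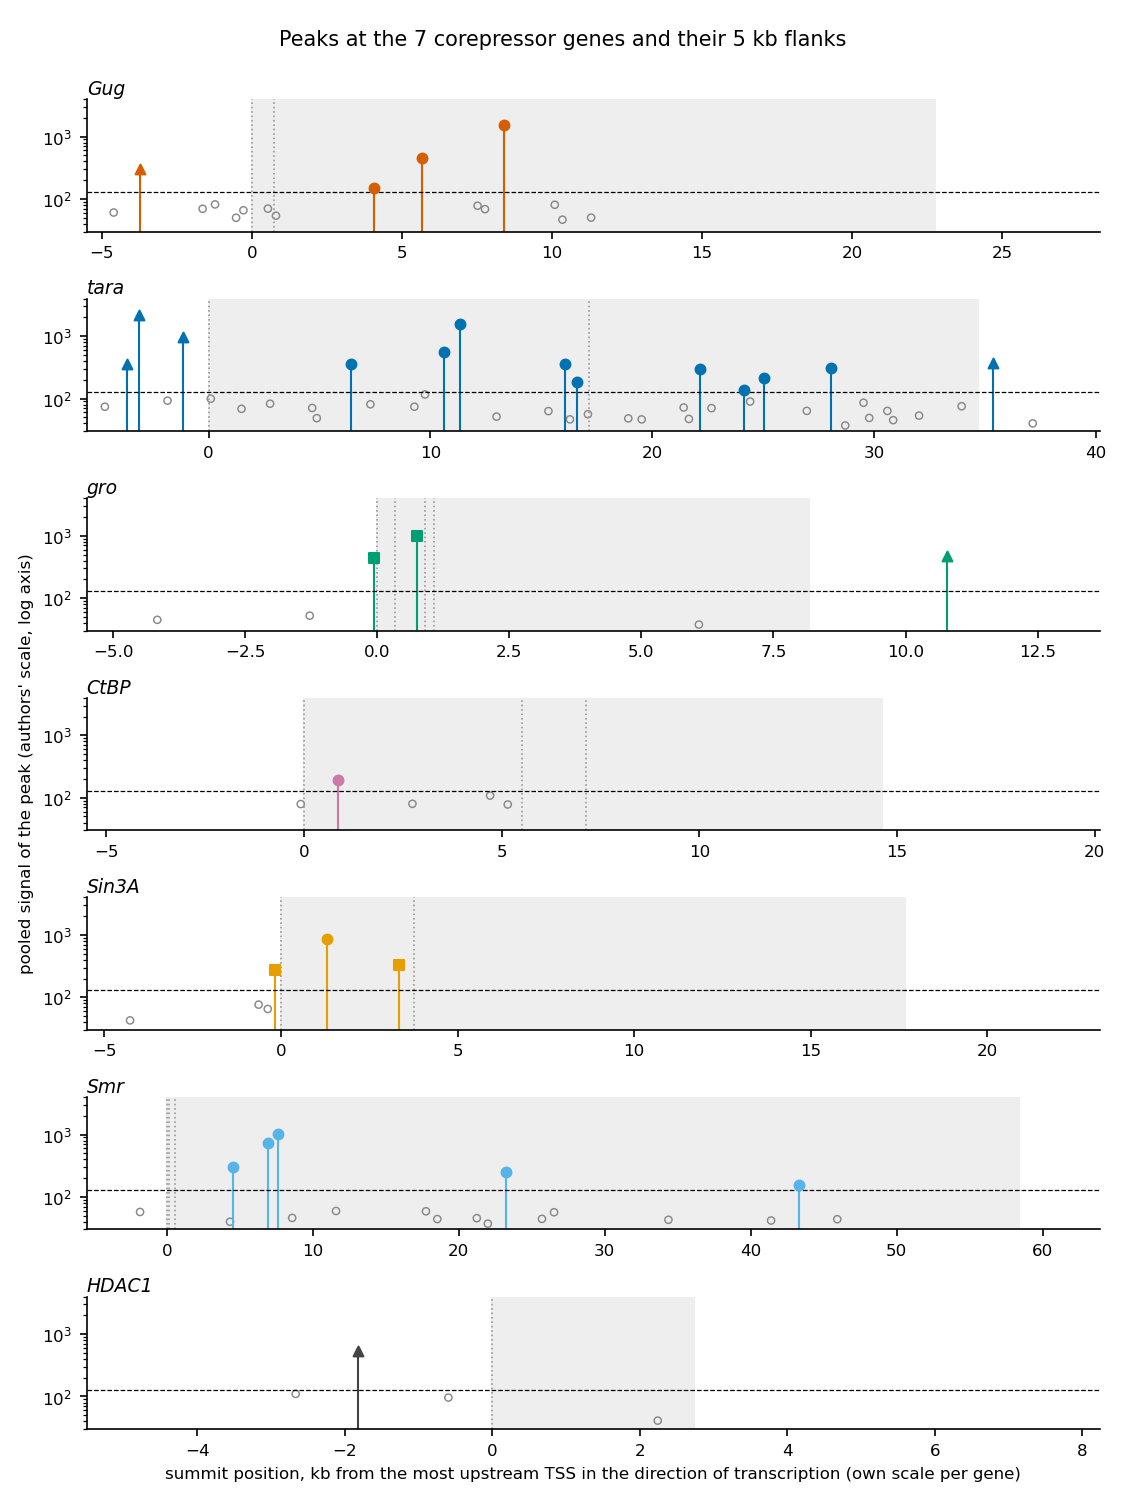
Pooled signal of each peak (vertical log axis, authors' scale) against the distance of its summit from the most upstream TSS in kb, in the direction of transcription, for the 7 genes, each on its own horizontal scale. Filled symbols with stems are IDR peaks (squares promoter, circles intron, triangles flank), open circles are weaker pooled peaks, grey shading is the gene, dotted lines are its TSSs and the dashed line is the lowest IDR signal of 129. The 13 IDR peaks of tara spread over the gene and both flanks, while those of gro and Sin3A stand within and around their start sites, apart from 1 downstream peak at gro.

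Gug spans 22.7 kb (3L, 8449922 to 8472669, plus strand) and has 2 annotated TSSs. It had 3 intronic IDR peaks and 1 flank peak, with no IDR peak at its start sites. The strongest, at 8458169 to 8458486, had a signal of 1537 and ranked 130 of 5038. It had a signal of 548 and rank 178 in replicate 1, and a signal of 991 and rank 114 in replicate 3, so it stood high in both lists. Its summit lay 7687 bp downstream of the nearest TSS, in an intron of all 9 annotated transcripts that is 9843 to 11514 bp long. The other intronic peaks lay in the same intron, nearer to the start. The peak at 8455470 to 8455630 was 4949 bp from the nearest TSS, with a signal of 448 and rank 1187 (1292 in replicate 1 and 1189 in replicate 3). The peak at 8453804 to 8454153 was 3331 bp away and weak, with a signal of 149 and rank 4352 (5604 and 4211). Among these 3 IDR peaks the signal thus rose with distance from the start sites. Weaker pooled peaks below the IDR limit did not follow that order. The strongest of those farther out lay 9368 bp from the nearest TSS, with a signal of 80.5 and pooled rank 8259. The flank peak, 3712 bp upstream with a signal of 303 and rank 2018, lay inside the neighbouring gene CG6983.

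The start sites of Gug were not empty in the full pooled list, where all 30000 peaks count. There 3 summits lay within 500 bp of a Gug TSS, at ranks 9866, 10706 and 14828, with signals of 69.8, 65.7 and 53.8. The peaks of rank 9866 and 14828 overlapped each other and matched the same replicate 3 peak, of rank 8119. In replicate 1 their counterparts ranked 26774 and 24201. The peak of rank 10706 had replicate ranks of 14500 and 10444. The deposited signal of the strongest intronic peak was 22 times that of the strongest of these 3, on a scale that is not defined. Promoter summits in the full pooled list were found at 5 of 7 members and at 48.2% of protein-coding genes.

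tara spans 34.7 kb (3R, 16225651 to 16260329, plus strand) and has 2 TSSs that are 17165 bp apart. It had 13 IDR peaks, 9 intronic and 4 in the flanks, and 0 within 500 bp of either TSS. All 9 intronic IDR summits lay in the first intron of the longer transcript, which is 30338 bp long and contains the second TSS. The density was 2.91 IDR peaks per 10 kb of gene and flanks, against 0.376 per 10 kb over the 6 major arms. The next densest of the 7 genes was gro, with 1.65. As many as 13 IDR peaks in a gene and its flanks were found at 7 protein-coding genes, tara among them. The other 6 were CG1677 with 21, sbb with 15, and CHES-1-like, Hr4, kirre and ush with 13 each, named here after their values were seen. Of these, only CHES-1-like, at 27.0 kb, is shorter than tara. The mean over all protein-coding genes was 0.964 peaks, and over those of at least 20 kb it was 2.05.

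The strongest tara peak lay outside the gene. It spanned 16222329 to 16222664, 3146 bp upstream of the first TSS, with a signal of 2186 and rank 59. It ranked 85 in replicate 1 (signal 776) and 45 in replicate 3 (signal 1427). The nearest TSS to this summit was that of the noncoding gene lncRNA:CR45643, at 890 bp. The peak at 16224362 to 16224641, 1140 bp upstream of tara, ranked 328 with a signal of 985, and its replicate ranks were 595 and 226. Both of these upstream peaks ranked higher in replicate 3. A weaker peak, 3701 bp upstream, had a signal of 351 and rank 1675. For the peaks of rank 328 and 1675 as well, the nearest TSS was that of lncRNA:CR45643, at 911 and 1445 bp. The downstream flank peak, 700 bp beyond the end of tara, had a signal of 369 and rank 1562. Its nearest TSS was that of bor, at 3066 bp.

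Inside tara, the peak at 16236783 to 16237112 had a signal of 1588 and rank 119, with rank 160 in replicate 1 (signal 571) and rank 100 in replicate 3 (signal 1019). It lay 11318 bp downstream of the first TSS and 5847 bp upstream of the second. A further peak at 16236156 to 16236443 had a signal of 553 and rank 844 (795 and 938), and its summit was 727 bp from that of the stronger peak. Near the second TSS, peaks lay 1102 bp upstream (signal 353, rank 1666) and 559 bp upstream (signal 186, rank 3486). The latter was just outside the promoter limit of 500 bp. The remaining 5 intronic peaks had ranks from 1647 to 4732 and signals from 356 to 138. The weakest of them, at rank 4732, was the tara peak nearest to the IDR limit from above. The strongest pooled tara peak below the limit, in the same intron, ranked 5625 with a signal of 116.

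Among the 436 intronic IDR peaks over 5 kb from any TSS, the tara peak ranked 2 and the Gug peak 3. The single peak above them (signal 1950, rank 74) lay in introns of the nuclear receptor gene Hr3 and of the annotated genes CG12912 and CG46321. Directly below came sbb, which encodes the nuclear protein Scribbler (signal 1509, rank 137), Lrch, a gene for a protein with leucine-rich repeats (signal 1164, rank 228), and simj, which encodes the p66 subunit of the NuRD complex (signal 1106, rank 256). The likeness between these peaks is their signal rank within this class in 1 pooled list. Gug and tara were chosen because strong peaks of this class had been seen in them, so their places restate that choice.

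**Figure D2:**
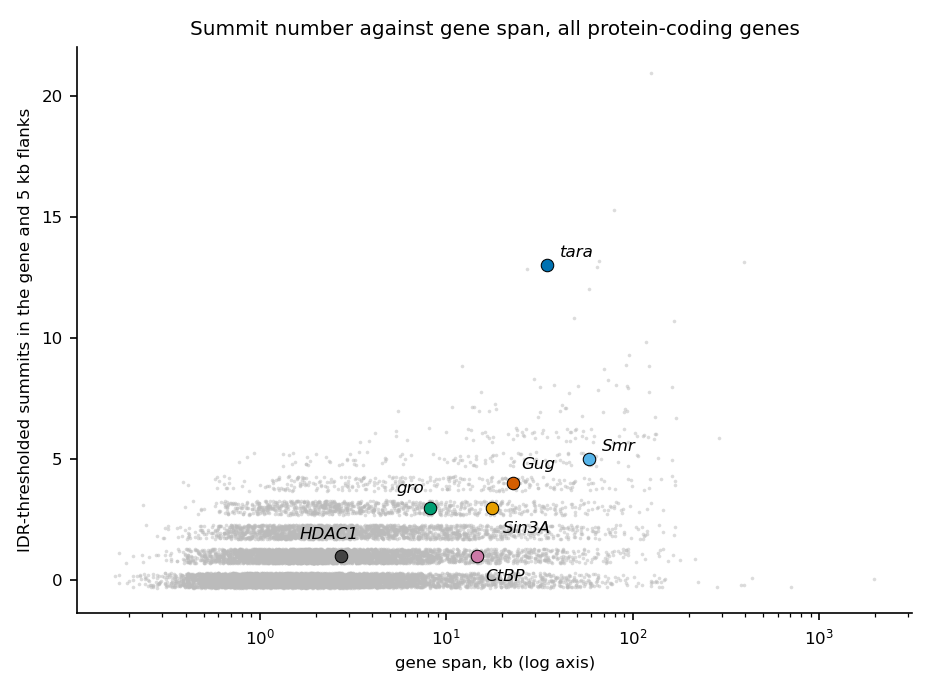
Number of IDR summits in each protein-coding gene and its 5 kb flanks (vertical axis, grey points moved slightly up or down at random for display) against gene span in kb (horizontal log axis), with the 7 members in colour at their exact counts. tara, with 13 summits, stands near the top of all genes, while HDAC1 and CtBP have 1 each.

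Smr is the longest of the 7 genes, at 58.4 kb (X, 12684203 to 12742618, minus strand). It had 5 IDR peaks, all intronic, and 0 at its 3 TSSs in either the IDR list or the full pooled list. The stronger peaks formed a pair 720 bp apart, in an intron of 9048 to 10500 bp near the start of the gene. The peak at 12734828 to 12735190 had a signal of 1023 and rank 299, with ranks of 314 in replicate 1 (signal 414) and 288 in replicate 3 (signal 618). The peak at 12735642 to 12735876 had a signal of 735 and rank 524, with replicate ranks of 558 and 507. Another peak in the same intron, 3977 bp downstream of the nearest Smr TSS, ranked 2034 (2956 and 1576). The other peaks lay 22671 bp (rank 2534) and 42751 bp (rank 4254) downstream of the nearest Smr TSS. The former also lay inside the noncoding gene lncRNA:CR43963, 939 bp from its TSS.

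gro is short, at 8.18 kb (3R, 26041736 to 26049911, plus strand), with 4 TSSs, and both of its own peaks were promoter peaks. The stronger, at 26042370 to 26042638, had a signal of 980 and rank 331, and its summit lay 143 bp upstream of the nearest TSS, which is one of the downstream start sites. It ranked 524 in replicate 1 (signal 303) and 242 in replicate 3 (signal 682). The other, at 26041569 to 26041750, lay 67 bp upstream of the first TSS, with a signal of 434 and rank 1246 (1034 and 1487). The order of the 2 start regions was the same in both replicates. A flank peak, 2616 bp beyond the end of gro (signal 472, rank 1099), was a promoter peak of the neighbouring genes Exo84, which encodes an exocyst subunit, and Vps2, 270 bp from the nearest TSS.

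CtBP spans 14.6 kb (3R, 13011649 to 13026275, plus strand) and had the weakest leading peak of the 7 genes. Its 1 IDR peak, at 13012334 to 13012683, lay 860 bp downstream of the first TSS in the first intron of 7 of 10 transcripts. The signal was 194 and the rank 3347, with ranks of 4365 in replicate 1 (signal 60.1) and 2951 in replicate 3 (signal 136). In the pooled list, summits within 500 bp of a CtBP TSS ranked 8445 and 8606, with signals of 79.0 and 77.8. The former overlapped a replicate 1 peak of rank 4493 and no peak in the list of replicate 3.

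HDAC1 is the shortest, at 2.73 kb (3L, 4626734 to 4629467, plus strand), and had 0 IDR peaks in the gene. Its 1 flank peak, at 4624793 to 4625043, lay 1817 bp upstream of its TSS and 1215 bp from a TSS of Src64B, inside that gene of a Src family kinase. It had a signal of 534 and rank 892. The replicates placed it differently, with rank 541 in replicate 1 (signal 297) and rank 1476 in replicate 3 (signal 236).

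Sin3A (2R, 12575240 to 12592917, minus strand) spans 17.7 kb and had 3 IDR peaks, all in its start region. The strongest was not at a TSS. It lay 1303 bp downstream of the first TSS, at 12591456 to 12591777, with a signal of 856 and rank 419, and with ranks of 359 in replicate 1 (signal 383) and 473 in replicate 3 (signal 467). The promoter peak at the first TSS, 166 bp upstream, was weaker, with a signal of 271 and rank 2312 (2635 and 2070). The promoter peak 426 bp upstream of the second TSS, the member summit nearest to the 500 bp limit from inside, had a signal of 325 and rank 1842 (2273 and 1786). Its summit also lay 189 bp from the TSS of lncRNA:CR30055, inside that gene.

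Both replicates held the member peaks. All 30 overlapped a peak in the full list of each replicate by at least 1 bp, and 21 did so by 50% of both lengths. In replicate 1 alone 25 of 30 met the stricter rule, and in replicate 3 alone 26. By rank, 27 of 30 were among the 5038 strongest of both replicates. The other 3 were the weak intronic peaks at Gug, tara and Smr of IDR ranks 4352, 4732 and 4254. Since the IDR list was made from the same replicates, this overlap is a property of how the list was made as well. Of the 30 peaks, 17 ranked higher in replicate 3 and the rest in replicate 1. Intronic peaks ranked higher in replicate 3 in 12 of 19 cases, promoter peaks in 3 of 4 and flank peaks in 2 of 7. The same overlaps and rank directions were not computed over all 5038 IDR peaks, so these numbers describe the 30 peaks alone.

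**Figure D3:**
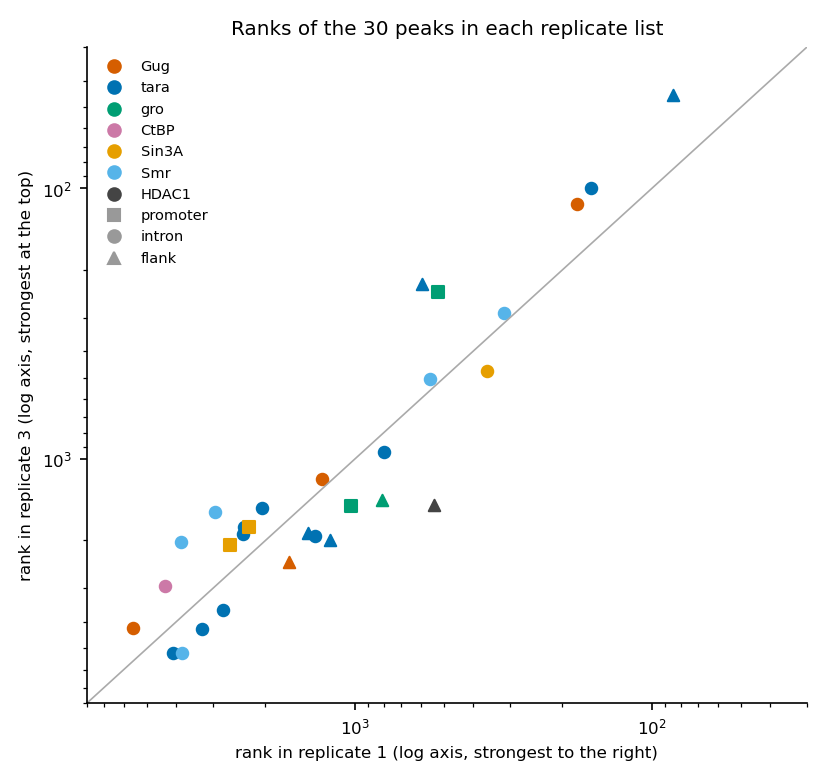
Rank of each of the 30 IDR peaks in the full list of replicate 1 (horizontal log axis) and of replicate 3 (vertical log axis), with the strongest peaks at the upper right, colours for genes and shapes for places. The grey line marks equal ranks, 17 peaks lie above it, and the HDAC1 flank peak (541 and 1476) is the clearest point below it.

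The numbers by gene were also counted in each replicate at equal list length. With the 5038 strongest peaks of replicate 1 the 7 genes had 33 peaks, and with those of replicate 3 they had 31. Promoter peaks were found at 3 of 7 genes in replicate 1 (background 26.8% of protein-coding genes) and at 2 of 7 in replicate 3 (background 21.8%). The additional gene in replicate 1 was CtBP. tara had 13 peaks in replicate 1 and 14 in replicate 3, against 13 in the IDR list. Gug had 3 and 5, against 4, and Smr had 6 and 4, against 5. Sin3A had 4 and 3, against 3, and CtBP and HDAC1 each had 2 and 1, against 1. Only gro had the same number, 3, in all of these lists.

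**Figure D4:**
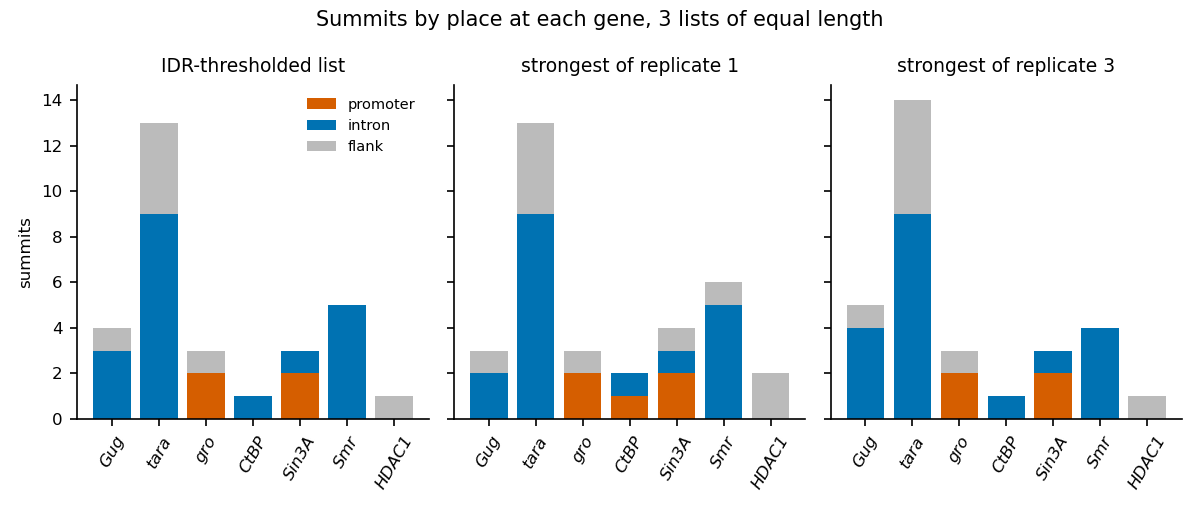
Number of summits at each gene, stacked by place (promoter, intron, flank), in 3 lists of 5038 peaks, namely the IDR list and the strongest peaks of replicates 1 and 3. tara has 13, 13 and 14 summits, and promoter summits appear at gro and Sin3A in all 3 lists and at CtBP in replicate 1.

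Of the 19 intronic peaks, 17 lay in the first intron of at least 1 annotated transcript, and 9 of the 17 were in the long intron of tara. The exceptions were the peaks of Smr at ranks 2534 and 4254. The share was not computed for other genes, so it describes these peaks alone.

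The same windows around the summits of all 30 peaks were searched for 10 motifs on both strands, and the share of all 5038 IDR windows and of windows 600 bp to either side is given as background. TATAAA, the letters of the TATA box, was present in 12 of 30 windows (40.0%), against 38.5% of IDR windows and 19.6% of flanking windows. TGATAA, bound by GATA factors, was present in 5 (16.7%, against 17.8% and 12.4%). Each of the following motifs was present in 1 window. GAGAGAG, bound by the GAGA factor, was in 2.24% of IDR windows and 4.59% of flanking windows, CAGCTG, an E-box, in 8.12% and 10.3%, and CAGGTAG, bound by Zelda, in 0.834% and 1.24%. The remaining 5 motifs were in 0 of 30 windows. TATCGATA, the DNA replication-related element, was in 4.29% of IDR windows and 0.576% of flanking windows, and GGTCACAC in 2.08% and 0.615%. AGGTCA, part of many nuclear receptor sites, was in 4.11% and 5.47%, the E-box CACGTG in 2.08% and 2.94%, and the repeat CACACACA in 2.60% and 6.84%. Of the words chosen after the data were seen, CACTG was present in 13 windows (43.3%, against 45.9% of IDR windows and 31.3% of flanking windows), CAGTGTA in 2 (6.67%, 6.91% and 1.48%) and TAATATA in 6 (20%, 15.0% and 5.43%). CAGTGTA contains CACTG on the other strand. The shares in the member windows were thus near those of IDR windows in general for the words and motifs found in 5 or more windows.

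Further genes of corepressor complexes are given beside all protein-coding genes, and not against the 7 genes, whose intronic peaks were partly the reason for their choice. Of 24 genes named as subunits or partners, 14 had a promoter IDR peak (58.3%, against 23.7% of protein-coding genes), and 4 had intronic peaks (16.7%, against 7.75%). Any peak in the gene or its flanks was present at 20 of 24 (83.3%), and the others were Su(var)3-3, Bin1, H and nab. Such a peak was present at 53.5% of protein-coding genes and at 71.5% of those of at least 20 kb. The median span of the 24 genes was 6.96 kb, and 3 of them span at least 20 kb. Of all coding genes of that length, 50% had intronic peaks. When each peak counted only for the coding gene with the nearest TSS, 9 of the 24 had a promoter peak. The share of all protein-coding genes was not computed under that rule, and the 23.7% does not apply to it. The strongest promoter peaks were at Hmt4-20, a histone H4 methyltransferase gene (X, 655016 to 655284, signal 1095, rank 262), and at ebi, whose product acts with Smr and HDAC3 (2L, 414758 to 415079, signal 895, rank 385). Next were alien (2L, 8997396 to 8997659, signal 587, rank 761) and CG7379, an ING family gene (3R, 17798283 to 17798498, signal 575, rank 783). HDAC3 and CoRest, which encode partners in other deacetylase complexes, had promoter peaks at ranks 1934 and 2583.

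Further genes of the list encode subunits of NuRD, a complex of a nucleosome remodeller and HDAC1. simj had 5 intronic peaks and 1 flank peak, the strongest at 10678571 to 10678968 on 3L (signal 1106, rank 256), and Mi-2, the remodeller, had 2 (strongest at 19903150 to 19903413 on 3L, signal 944, rank 351). MTA1-like had promoter peaks, the strongest at rank 2636. MBD-like had a promoter peak at rank 1982 and flank peaks, the stronger of which, at rank 1466, exceeded it. The gene of the histone-binding p55 subunit (FBgn0263979) had 1 peak, in its flank, with a signal of 5586 and rank 4, the strongest in either further list. Its summit lay 3951 bp from the nearest TSS of that gene. Other genes near this flank peak were not looked up, so it may lie at a neighbouring gene. Beyond NuRD, the class II deacetylase gene HDAC4 had 4 intronic peaks (strongest rank 1121) and bon, the fly TIF1 gene, had 2 (strongest rank 1268).

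Genes of DNA-binding repressors that recruit these corepressors were counted in the same way. Of 15, 1 had a promoter peak (6.67%, against 23.7% of protein-coding genes), Su(H), the DNA-binding protein of the Notch pathway (2L, 15039396 to 15039522, signal 307, rank 1972). An intronic peak was present at 1 of 15, ttk (3R, 31717289 to 31717638, signal 291, rank 2122), which encodes a zinc finger repressor. This share of 6.67% was near the 7.75% of protein-coding genes. In all, 4 of 15 (26.7%) had any IDR peak in the gene or its flanks, against 53.5% of protein-coding genes. The others were flank peaks at brk, which encodes the repressor of Dpp target genes (rank 759), and at hry, which encodes the pair-rule repressor Hairy (rank 3091). These genes are short, with a median span of 3.19 kb, and 1 of the 15 is at least 20 kb long.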

How the data were processed

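ChIP-seq peak lists of 2 biological replicates in 1 group were analysed. Per the deposited notes, peaks were derived from each alignment, and from both together, with a control, on dm6. Neither the program that called the peaks nor the IDR software is named; their versions are also not given here. Chromatin fragments were 200 to 800 bp, per the labels. The authors deposited a signal for each peak, used for ranking within a list. The −log10 q value deposited beside it by the authors was not used. With 2 samples of 1 group and no counts, no test was run and no interval computed.

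The 7 genes and the further lists were chosen with earlier results of these data known. Gene and TSS positions came from Ensembl release 115 (BDGP 6.54) and sequence from the RefSeq release 6 assembly, whose gene limits were equal for the 7 genes. Coordinates are 1-based. Python 3.11.15, numpy 2.4.6, pandas 2.3.3 and matplotlib 3.10.9 were used, and the assignment of summits was tested on simulated data. All 39 listed genes were matched, 5 through RefSeq synonyms or spelling. Named genes were all members, up to 4 of each further list by promoter and by intronic signal, the neighbours of the Gug and tara peaks in their class, and genes sharing a member's promoter peak. The other genes, named by role or by peak number, were chosen after their values were seen. Alternatives covered the list, TSS and flank distances, overlap, windows, the nearest gene and the replicates singly, where the 5038 strongest peaks of 1 replicate stood in for the IDR list.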

Additional observations from a re-analysis of the deposited data

How the results depend on the processing

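Of the counts and ranks above, 34 values under alternative settings lay within 1.5 times the reported count, or near the reported rank, and 8 did not. Members with a promoter peak rose from 2 to 4 with a TSS distance of 1000 bp, and the DNA-binding repressor genes from 1 to 2. Member peaks in introns numbered 12 among the stronger 2519 IDR peaks, against 19. Flank peaks numbered 3 with flanks of 2 kb and 14 with flanks of 10 kb, against 7. The corepressor complex genes with a promoter peak fell from 14 to 9 both with the stronger 2519 peaks and with the nearest coding gene only. The rank of the strongest Gug intronic peak was 114 without replicate 1 and 178 without replicate 3, against 130. These are the ranks in the single replicates themselves, and the rank of 178 was counted among the 8. All 7 genes had a peak in the gene or flanks with other flank lengths and in each replicate alone, and 6 of 7, all but CtBP, among the stronger 2519 peaks. No share over all protein-coding genes was computed for the changed distances, the stronger 2519 peaks or the nearest-gene rule. For motifs, 16 alternative counts lay within 1.5 times and 10 did not. The peak lists carry no read depth, so a place without a peak was not shown to lack the protein.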

Other observations

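The windows of the member peaks covered a wide range of base composition. The GC content ran from 19.9 to 52.2% with a median of 31.8%, against a median of 34.3% over all 5038 IDR windows. The strongest peaks differed too. The tara upstream peak had 48.3% GC, while the intronic peaks of tara and Gug had 26.4 and 28.9%, and that of Smr 24.9%.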
